A study of Homo sapiens with 9 samples.

Results

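The human mitochondrial genome carries 37 annotated genes, and all 37 were taken by their MT- symbols from the 58096 gene IDs listed for each library: 13 mRNAs, 2 rRNAs and 22 tRNAs. The rule used no measured value, but it was set with earlier results of these data known. Total RNA was sequenced from ALL-SIL, a line derived from T-cell acute lymphoblastic leukaemia that expresses TLX1, a homeobox transcription factor. All cells were electroporated and taken at 24 h: the control group received a scrambled siRNA, at 400 nM in the labels, and the other groups received siTLX1 s46 or siTLX1 s47, with no dose in their labels. The 9 libraries, 3 per group, were made with a stranded total-RNA kit after Ribo-Zero Gold depletion. Every group is the same cell line. The labels do not tell if replicates are separate cultures, and the p-values therefore cover only the spread from sample to sample, which may be technical. The comparisons ask whether RNA of the mitochondrial genome differs when TLX1 is reduced. The 2 siRNA comparisons share their scrambled libraries, and with them any feature of those.

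Mitochondrial DNA is a small circle inside the organelle that is transcribed on both strands as long RNAs covering many genes at once. The tRNAs lie between the longer genes, and the enzymes RNase P and ELAC2 cut at their ends, which frees the mRNAs and rRNAs on either side. Transcription in the direction of the reference plus strand yields both rRNAs, most mRNAs and most tRNAs, while transcription in the minus direction yields the MT-ND6 mRNA and the remaining tRNAs, and its long non-coding stretches are normally degraded by the SUPV3L1 and PNPT1 proteins. The mRNAs encode core subunits of respiratory complexes I, III, IV and V, the rRNAs build the mitochondrial ribosome, and the tRNAs serve translation there. Ribo-Zero Gold is designed to remove mitochondrial as well as cytoplasmic rRNA, so the rRNA levels below are those left after depletion.

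TLX1 fell with both siRNAs: it was at 198, 188 and 171 CPM in scrambled replicates 1, 2 and 3, 63.7, 87.3 and 78.6 CPM with s46 and 63.5, 73.7 and 75 CPM with s47, so that every siRNA library lay below every scrambled one. Averaged over s46 and s47, its log2 fold change was -1.34 ± 0.11 (SE, edgeR adjusted p 0.000394), and -1.29 (adjusted p 0.000186) without scrambled replicate 1. Sense gene reads, those on the strand of the gene, numbered 21134650 to 33393740 per library. The 11 T-lineage markers (CD3D, CD7, LCK and others) summed to 1653 to 1849.7 CPM (read counts scaled to library size with TMM factors) with scrambled and 1769.9 to 1992 CPM with TLX1 siRNA, and none was at 0. The 6 B-cell markers summed to 10.5 to 14.7 CPM over the siRNA libraries, a range that held all scrambled libraries, and the myeloid, erythroid and fibroblast or epithelial lists to at most 0.301 CPM, with CD33, ELANE, HBA1, ALAS2 and DCN at 0 in all libraries. The library of scrambled replicate 1 stood apart: it had the fewest sense gene reads and 14.4% multimapping reads against 6.36% to 7.34% in the other 8. Its 52945068 reads in all lay within the range of the others (49628363 to 57784876). Gene reads were 39.1% of them against 51.4% to 58.2%, and reads in no listed feature 35.9% against 23% to 31.4%. Log2 fold changes of single genes against the scrambled group are therefore given with and without scrambled replicate 1.

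The genes are packed so tightly that neighbours touch or overlap, which matters for reads that cross a boundary. The deposited tables list ambiguous reads apart from the genes; no source used here defines them, and in gene counting the word usually means reads that meet more than 1 gene. Among plus-strand mRNAs, MT-ATP8 and MT-ATP6 shared 46 bases (chrM:8527-8572), MT-ND4L and MT-ND4 shared 7 (chrM:10760-10766) and MT-ATP6 and MT-CO3 shared 1 (chrM:9207-9207), in GENCODE 29 on GRCh38. The MT-ND4L and MT-ND4 sequences at their overlap are shown because a read over the capitals lies in both genes. The end of MT-ND4L covers chrM:10740-10766 and the start of MT-ND4 covers chrM:10760-10786, both on the plus strand, with the shared bases in capitals:
MT-ND4L end: cataacctaaacctactccaATGCTAA
MT-ND4 start: ATGCTAAaactaatcgtcccaacaatt
The boundaries of 5 plus-strand tRNAs with the mRNA before them are shown because the mRNA ends at the base next to the tRNA, so that an uncut RNA reads through from lower case (mRNA) into capitals (tRNA). They cover chrM:5497-5526, chrM:15873-15902, chrM:9976-10005, chrM:10390-10419 and chrM:12123-12152 in the order given, on the plus strand:
MT-ND2 to MT-TW: tactaataatcttatAGAAATTTAGGTTAA
MT-CYB to MT-TT: tactcaaatgggcctGTCCTTGTAGTATAA
MT-CO3 to MT-TG: attgatgagggtcttACTCTTTTAGTATAA
MT-ND3 to MT-TR: tagactgaaccgaatTGGTATATAGTTTAA
MT-ND4 to MT-TH: ccgggttttcctcttGTAAATATAGTTTAA
The boundary of MT-ND5 and MT-ND6 (chrM:14134-14163, plus strand) is where 2 mRNA genes of opposite strands meet by their 3′ ends. MT-ND5 is in lower case and ends with its stop codon taa, and the capitals are MT-ND6 read against its own direction:
MT-ND5 to MT-ND6: ctcctaatcacataaCCTATTCCCCCGAGC

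Sense levels were compared between genes per length, as CPM per kb of annotated gene, for the 15 mRNAs and rRNAs over the 8 libraries other than scrambled replicate 1. The mRNAs of complex IV, cytochrome c oxidase, led: MT-CO3 ran from 2098 to 2528 CPM per kb, MT-CO1 from 842 to 951 and MT-CO2 from 687 to 832. MT-ND3 came next, at 397 to 702 CPM per kb, and its range overlapped that of MT-CO2. The large-subunit rRNA MT-RNR2 was at 163 to 268 CPM per kb. Behind it, MT-ATP6 (121 to 158), MT-ND4L (112 to 140.1) and MT-CYB (106 to 142) overlapped each other, and MT-ND4 lay below them at 83.7 to 102 CPM per kb. The lowest 6 of the 15 were MT-ND6 (49.9 to 64.6), MT-RNR1 (32.3 to 66), MT-ND5 (39.8 to 53.5), MT-ND1 (32.2 to 48), MT-ND2 (29.4 to 41.8) and MT-ATP8 (20.9 to 40.1 CPM per kb), and each overlapped its neighbour in this order. MT-ATP8 shares 46 of its 207 bases with MT-ATP6, and its level per kb carries no correction for the reads that are lost there. Nor was any level corrected for reads set apart as multimapping. Nuclear copies of mitochondrial genes, described below, may make that loss unequal between genes, which was not tested. Of the tRNAs, MT-TP was at 26.8 to 54.9 CPM per kb, with a median between those of MT-ND5 and MT-ND1, and the next was MT-TQ at 10.6 to 22.2. Within each of the 15 genes the 8 libraries had coefficients of variation from 4.08% for MT-CO1 to 22.6% for MT-RNR1.

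**Figure D1:**
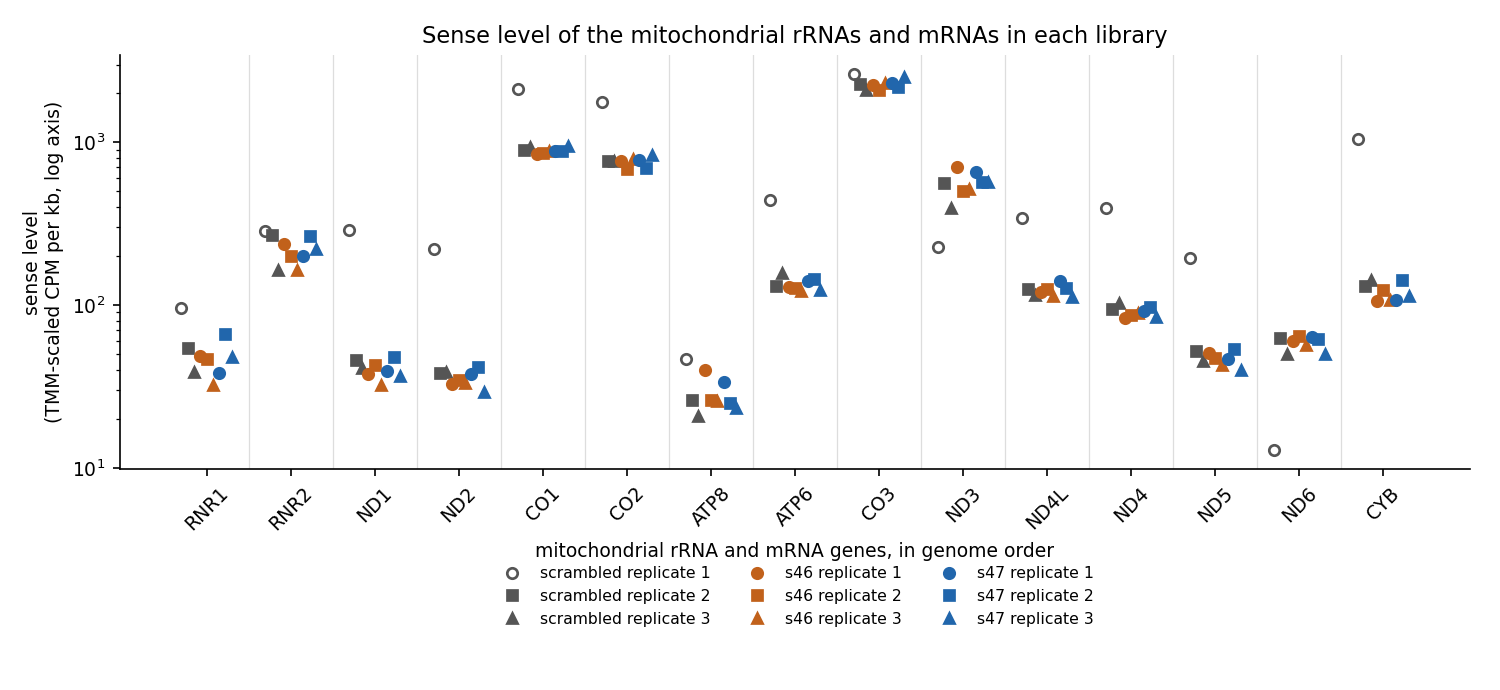
Sense level of the 2 rRNAs and 13 mRNAs in genome order (x axis), in TMM-scaled CPM per kb on a log axis (y axis), with 1 point per library and colour for the siRNA group. Scrambled replicate 1 (open circle) lies above the other 8 libraries for 13 of these 15 genes and below them for MT-ND3 and MT-ND6.

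Summed by class, the 13 mRNAs took 1.02%, 0.45% and 0.458% of sense gene reads in scrambled replicates 1, 2 and 3, 0.429%, 0.416% and 0.441% with s46 and 0.438%, 0.438% and 0.466% with s47. The group means were 0.642% ± 0.327 (SD, n = 3) with scrambled and 0.438% ± 0.0165 (SD, n = 6) over both TLX1 siRNAs, and scrambled replicates 2 and 3 lay inside the siRNA range. The 2 rRNAs took 0.0567%, 0.0468% and 0.0305% in the scrambled libraries, 0.0404%, 0.0355% and 0.0283% with s46 and 0.0337%, 0.0473% and 0.0381% with s47. For the rRNAs the groups overlapped, with scrambled replicate 1 highest and s47 replicate 2 next. The 22 tRNAs took 0.00402%, 0.000802% and 0.000911% in the scrambled libraries, 0.000953%, 0.000739% and 0.000898% with s46 and 0.000816%, 0.000846% and 0.000783% with s47. The tRNA sum of scrambled replicate 1 thus stood far above that of every other library, and the other 8 overlapped. Of all reads, mRNAs took 0.407% in scrambled replicate 1 and 0.228% to 0.279% in the other 8, and tRNAs 0.0016% and 0.00043% to 0.000519%. The rRNAs of scrambled replicate 1 took 0.0226% of all reads, below scrambled replicate 2 (0.0269%) and s47 replicates 2 (0.0262%) and 3 (0.0228%). Without regard to strand, the tRNAs took 0.00292% of gene reads in scrambled replicate 1 and 0.002% to 0.00263% in the other 8. No test was run on these sums. In bulk RNA, less mitochondrial RNA per cell and fewer cells rich in it cannot be told apart.

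**Figure D2:**
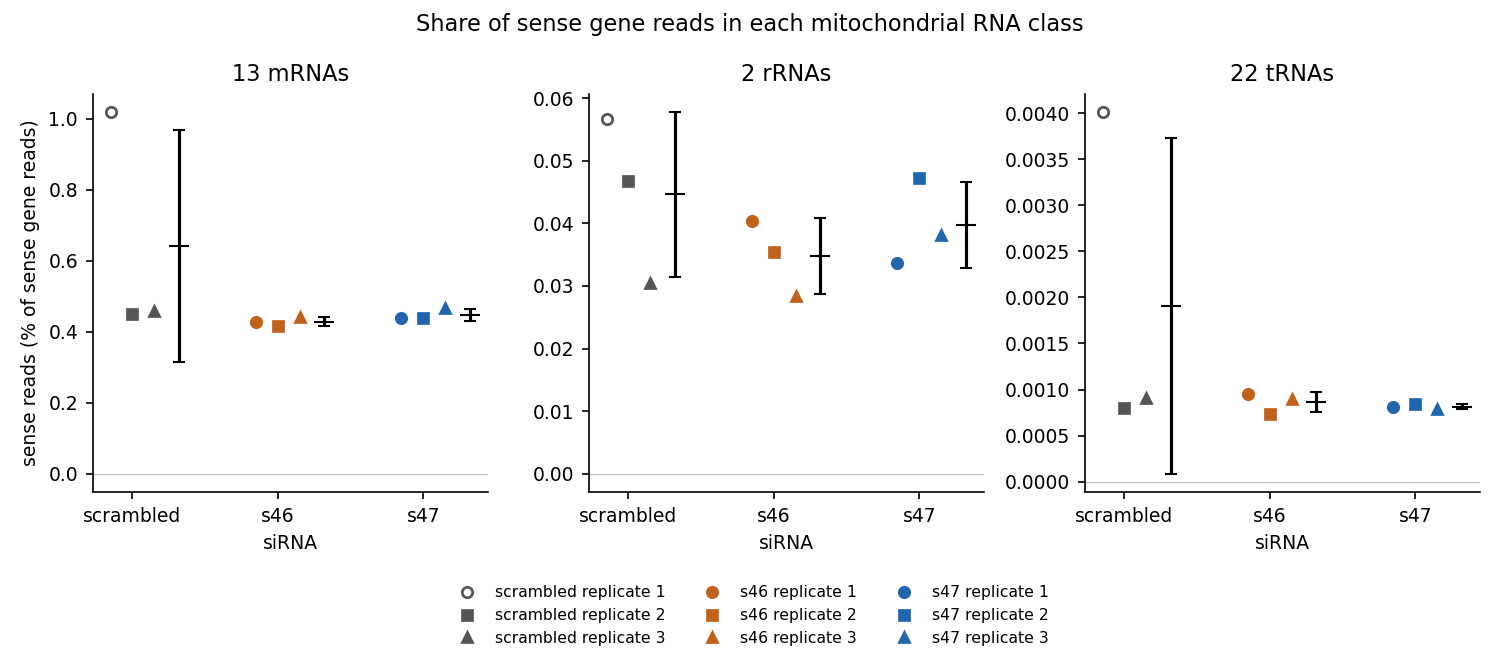
Sense reads of the 13 mRNAs, 2 rRNAs and 22 tRNAs as a percent of all sense gene reads (y axes, each from 0), by siRNA group (x axis). Points are libraries, with scrambled replicate 1 as an open circle, and bars are the group mean ± SD (n = 3). In all 3 panels the highest library is scrambled replicate 1, and the other 8 overlap between groups.

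Of the 37 genes, 23 had enough sense reads to be tested: all 13 mRNAs, both rRNAs and 8 tRNAs. The remaining 14 tRNAs did not pass the filter on low counts, with at most 8 reads in any library. For the mean of both siRNAs against scrambled, 0 of the 23 passed the threshold (edgeR adjusted p under 0.05), where 0.566% of all 16072 genes tested did. DESeq2 and limma-voom also called 0. At an unadjusted p under 0.05, 12 of the 23 differed (11 lower and 1 higher), against 17.8% of all genes (10.5% lower and 7.27% higher), and DESeq2 and limma-voom gave 11 and 7. Without scrambled replicate 1, 0 of the 23 were called and 0 had an unadjusted p under 0.05, where 0.666% and 8.62% of all genes did. Without scrambled replicate 2 instead, which leaves replicate 1 as 1 of 2 controls, 6 were called: MT-CYB (-2.34 on the log2 scale), MT-ATP6 (-1.19), MT-CO1 (-0.79), MT-TT (-1.82) and MT-TW (-3.15) lower and MT-ND3 (0.92) higher, against 10.1% of all genes. With no filter on low counts, 27 mitochondrial genes were tested. Of these, 5 were called for the mean (1 higher and 4 lower), 3 with s46 and 2 with s47, where 2.8%, 1.23% and 1.38% of all genes were.

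Each siRNA was also compared alone. With s46, 0 of 23 were called (background 0.174%) and 8 had an unadjusted p under 0.05 (11.9% of all genes). With s47, 0 were called (background 0.33%) and 7 had an unadjusted p under 0.05 (12.3% of all genes). Between s46 and s47, 0 were called (background 0%) and 0 had an unadjusted p under 0.05 (0.703% of all genes), and the 23 log2 differences ran from -0.25 to 0.37. DESeq2 and limma-voom called 0 in each of these comparisons as well, with 9 and 3 genes at an unadjusted p under 0.05 for s46, 7 and 1 for s47 and 0 and 0 between the siRNAs. Without scrambled replicate 1, edgeR called 0 with s46 and 0 with s47 (backgrounds 0.293% and 0.422%), and 1 and 0 had an unadjusted p under 0.05 (6.75% and 7.52% of all genes). In level, 0 of the 23 had all 6 siRNA libraries on 1 side of all scrambled libraries, where 8.12% of all genes tested did, and the count was again 0 against scrambled replicates 2 and 3 alone (11.8% of all genes).

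By class, the median log2 fold change (s46 and s47 averaged) was -0.67 over the 13 mRNAs, -0.30 over the 2 rRNAs and -0.44 over the 8 tested tRNAs, beside -0.03 over all genes tested. Leaving out scrambled replicate 1 gave medians of -0.05, -0.01 and -0.12, beside -0.0087 over all genes. The range over the 23 genes was -2.69 to 0.57 with all libraries and -0.46 to 0.57 without that one.

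**Figure D3:**
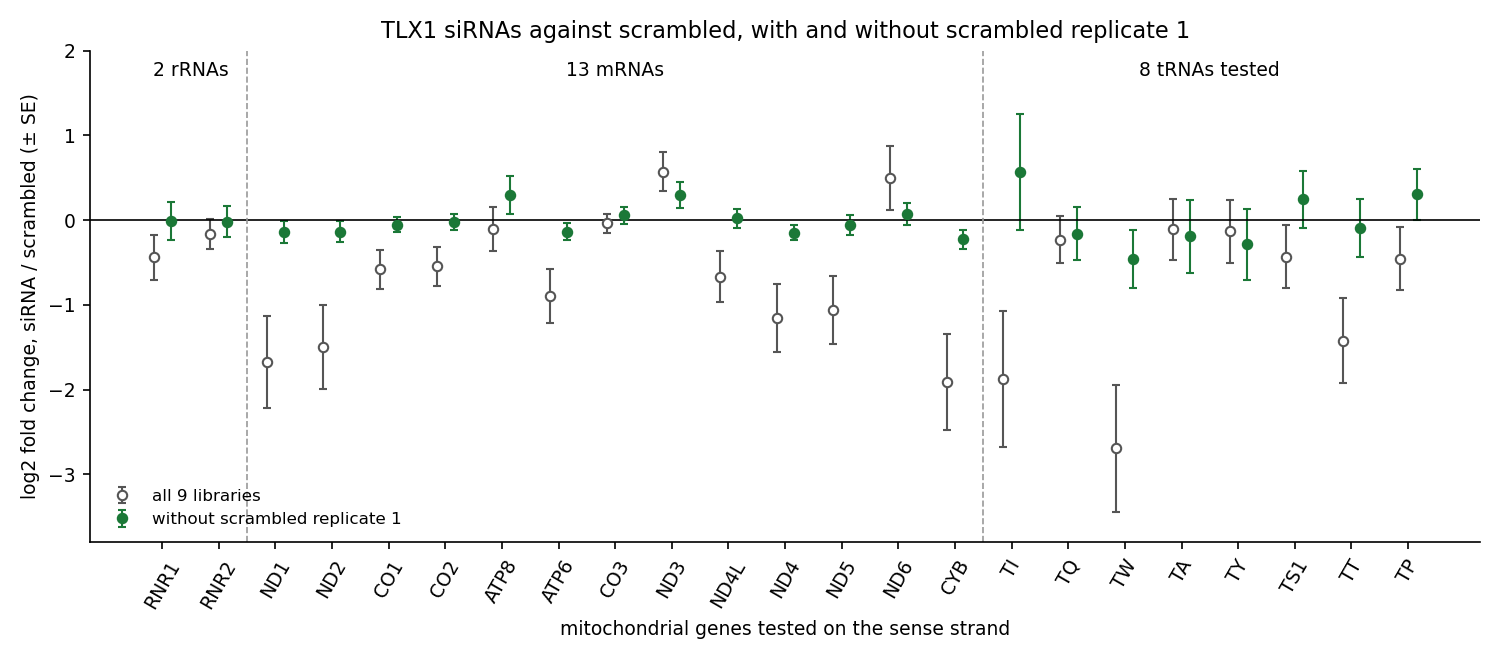
Log2 fold change of s46 and s47, averaged, over scrambled (y axis, bars are ± SE) for the 23 mitochondrial genes tested on the sense strand (x axis, by class). Open points use all 9 libraries and filled points leave out scrambled replicate 1: the open points reach -2.69 at MT-TW, while the filled ones lie between -0.46 and 0.57.

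MT-RNR1, the RNA of the small mitochondrial ribosomal subunit, was at 91.3, 51.9 and 37.2 CPM in scrambled replicates 1, 2 and 3, 46.6, 44.7 and 30.8 CPM with s46 and 36.2, 63 and 45.6 CPM with s47. The highest library was scrambled replicate 1, and the other 8 overlapped across groups. MT-RNR1 had a log2 fold change of -0.44 ± 0.26 (SE, edgeR adjusted p 0.395), and of -0.01 ± 0.22 (adjusted p 0.996) without scrambled replicate 1. MT-RNR2, the RNA of the large subunit, was at 445, 418 and 255 CPM in scrambled replicates 1, 2 and 3, 367, 314 and 254 CPM with s46 and 312, 411 and 342 CPM with s47. Here scrambled replicates 1 and 2 and s47 replicate 2 were the 3 highest, and all groups overlapped. MT-RNR2 had a log2 fold change of -0.16 ± 0.17 (SE, edgeR adjusted p 0.624), and of -0.02 ± 0.19 (adjusted p 0.988) without scrambled replicate 1. MT-RNR2 exceeded MT-RNR1 by 4.87 times in scrambled replicate 1 and by 6.52 to 8.61 times in the other libraries, as a ratio of counts that takes no account of length. Both values follow an rRNA depletion step, and its part in the spread between libraries was not tested.

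The 7 MT-ND mRNAs encode subunits of complex I, the NADH dehydrogenase that passes electrons to ubiquinone. MT-ND1, part of the membrane arm near the ubiquinone site, was at 277, 44 and 39 CPM in scrambled replicates 1, 2 and 3, 36.3, 40.7 and 30.8 CPM with s46 and 37.4, 45.9 and 34.8 CPM with s47. In scrambled replicate 1 it was 7.18 times the mean of the other 8 libraries, which overlapped. MT-ND1 had a log2 fold change of -1.67 ± 0.54 (SE, edgeR adjusted p 0.213), and of -0.14 ± 0.13 (adjusted p 0.823) without scrambled replicate 1. MT-ND2, a proton-pumping subunit of the membrane arm, was at 229, 39.5 and 40.2 CPM in scrambled replicates 1, 2 and 3, 34.1, 36.1 and 34.8 CPM with s46 and 39.1, 43.5 and 30.6 CPM with s47. Its pattern was the same, with scrambled replicate 1 at 6.14 times the others. MT-ND2 had a log2 fold change of -1.50 ± 0.50 (SE, edgeR adjusted p 0.215), and of -0.13 ± 0.12 (adjusted p 0.823) without scrambled replicate 1.

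MT-ND4L and MT-ND4, which both encode subunits of the membrane arm, come from a shared mRNA with the 7-base overlap shown above. MT-ND4L was at 102, 37.5 and 34.4 CPM in scrambled replicates 1, 2 and 3, 35.7, 37 and 33.5 CPM with s46 and 41.6, 38 and 33.2 CPM with s47. MT-ND4L had a log2 fold change of -0.67 ± 0.30 (SE, edgeR adjusted p 0.281), and of 0.02 ± 0.11 (adjusted p 0.974) without scrambled replicate 1. MT-ND4 was at 547, 129.9 and 141 CPM in scrambled replicates 1, 2 and 3, 115, 120.2 and 123 CPM with s46 and 127, 133 and 116 CPM with s47. MT-ND4 had a log2 fold change of -1.16 ± 0.40 (SE, edgeR adjusted p 0.223), and of -0.15 ± 0.09 (adjusted p 0.716) without scrambled replicate 1. Although read from a shared mRNA, they did not stand equally far out in scrambled replicate 1, which was 2.81 times the mean of the others for MT-ND4L and 4.36 times for MT-ND4. MT-ND5, the largest of these subunits, was at 355, 94.5 and 81.9 CPM in scrambled replicates 1, 2 and 3, 91.9, 86 and 77.3 CPM with s46 and 84.8, 96.9 and 72.1 CPM with s47. Its level in scrambled replicate 1 was 4.14 times the others, which overlapped. MT-ND5 had a log2 fold change of -1.06 ± 0.40 (SE, edgeR adjusted p 0.244), and of -0.06 ± 0.12 (adjusted p 0.94) without scrambled replicate 1.

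MT-ND3 and MT-ND6 went the other way in scrambled replicate 1. MT-ND3, a small subunit next to the ubiquinone site, was at 78.6, 194 and 137 CPM in scrambled replicates 1, 2 and 3, 243, 174 and 179 CPM with s46 and 228, 197 and 197 CPM with s47. Scrambled replicate 1 was the lowest library, scrambled replicate 3 came next, and scrambled replicate 2 lay within the siRNA range. MT-ND3 had a log2 fold change of 0.57 ± 0.23 (SE, edgeR adjusted p 0.246), and of 0.30 ± 0.15 (adjusted p 0.626) without scrambled replicate 1. MT-ND6, the single mRNA encoded on the minus strand, was at 6.72, 32.8 and 26.3 CPM in scrambled replicates 1, 2 and 3, 31.7, 33.9 and 29.6 CPM with s46 and 33.2, 32.3 and 26.2 CPM with s47. Scrambled replicate 1 held 4.58 times less than the mean of the other 8, with 150 reads against 717 to 1016, and those 8 overlapped across groups. MT-ND6 had a log2 fold change of 0.50 ± 0.38 (SE, edgeR adjusted p 0.497), and of 0.08 ± 0.13 (adjusted p 0.918) without scrambled replicate 1.

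MT-CYB, cytochrome b of complex III, which hands electrons from ubiquinol to cytochrome c, was at 1192, 149 and 162 CPM in scrambled replicates 1, 2 and 3, 121, 141 and 122 CPM with s46 and 123, 162 and 130.5 CPM with s47. The level in scrambled replicate 1 was 8.57 times the mean of the other 8, the largest ratio among the mRNAs, with 26614 reads against 3181 to 5106. MT-CYB had a log2 fold change of -1.91 ± 0.57 (SE, edgeR adjusted p 0.192), and of -0.23 ± 0.11 (adjusted p 0.615) without scrambled replicate 1. Scrambled replicate 3 and s47 replicate 2 were level at the top of the other 8.

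The mRNAs of complex IV, which passes electrons to oxygen, made up 80.6% to 84.6% of sense mitochondrial mRNA reads in the 8 libraries and 67.9% in scrambled replicate 1. MT-CO1, which holds the catalytic site, was at 3285, 1381 and 1441 CPM in scrambled replicates 1, 2 and 3, 1298, 1324 and 1356 CPM with s46 and 1371, 1353 and 1466 CPM with s47. The 8 libraries other than scrambled replicate 1 differed little, and that library was 2.39 times their mean. MT-CO1 had a log2 fold change of -0.58 ± 0.23 (SE, edgeR adjusted p 0.236), and of -0.05 ± 0.09 (adjusted p 0.923) without scrambled replicate 1. MT-CO2, which takes electrons from cytochrome c, was at 1215, 525 and 526 CPM in scrambled replicates 1, 2 and 3, 523, 470.1 and 538 CPM with s46 and 531, 475 and 569 CPM with s47. It followed MT-CO1 closely, at 2.34 times in scrambled replicate 1. MT-CO2 had a log2 fold change of -0.54 ± 0.23 (SE, edgeR adjusted p 0.26), and of -0.02 ± 0.10 (adjusted p 0.974) without scrambled replicate 1. MT-CO3, a structural core subunit, was at 2057, 1794 and 1645 CPM in scrambled replicates 1, 2 and 3, 1761, 1652 and 1821 CPM with s46 and 1803, 1712 and 1982 CPM with s47. Scrambled replicate 1 was 1.16 times the mean of the others, and s47 replicate 3 came close to it. MT-CO3 had a log2 fold change of -0.03 ± 0.11 (SE, edgeR adjusted p 0.892), and of 0.06 ± 0.10 (adjusted p 0.921) without scrambled replicate 1.

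Complex V, the ATP synthase, has 2 subunits of mitochondrial origin, both in its proton channel sector. MT-ATP8 was at 9.67, 5.39 and 4.33 CPM in scrambled replicates 1, 2 and 3, 8.31, 5.38 and 5.33 CPM with s46 and 7, 5.18 and 4.85 CPM with s47. It had the fewest reads of the mRNAs over the 9 libraries, and s46 replicate 1 lay close to scrambled replicate 1. MT-ATP8 had a log2 fold change of -0.10 ± 0.26 (SE, edgeR adjusted p 0.854), and of 0.30 ± 0.23 (adjusted p 0.778) without scrambled replicate 1. MT-ATP6 was at 301, 88.8 and 108 CPM in scrambled replicates 1, 2 and 3, 87.5, 86.7 and 82.7 CPM with s46 and 95.4, 98.6 and 84.7 CPM with s47. Scrambled replicate 1 was 3.29 times the mean of the other 8, against 1.69 times for MT-ATP8 on the same RNA. MT-ATP6 had a log2 fold change of -0.89 ± 0.32 (SE, edgeR adjusted p 0.233), and of -0.14 ± 0.10 (adjusted p 0.771) without scrambled replicate 1.

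The mRNAs were thus not shifted by a common factor in scrambled replicate 1: its level ranged from 0.218 times (MT-ND6) to 8.57 times (MT-CYB) the mean of the other 8. Its mRNA reads held 12.3% MT-CYB against 2.72% to 3.7% in the others, 21.3% MT-CO3 against 37.5% to 41.8%, 0.814% MT-ND3 against 3.13% to 5.54% and 34% MT-CO1 against 29.6% to 32.9%. Across the 15 mRNAs and rRNAs, log2 CPM of scrambled replicate 1 correlated with the other libraries at r = 0.791 to 0.861, where the other 8 correlated among themselves at 0.984 to 0.999, a description over genes that share each library. Over the 13 mRNAs, the log2 ratio of scrambled replicate 1 to the others had r = 0.51 with GC content, 0.51 with log2 length and -0.32 with position, again as a description over genes. It was outside the range of the other 8 for 21 of the 23 tested genes, above for 19 and below for 2, but also for 60.2% of all genes tested (31.2% above and 29% below). The part of the multimapping reads or of depth in this was not tested.

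Sense reads on tRNA genes were few, and a mature tRNA is shorter than the fragments such libraries usually keep. MT-TP, the proline tRNA and the member of the class with most sense reads, was at 7.16, 1.82 and 2.79 CPM in scrambled replicates 1, 2 and 3, 3.73, 1.98 and 2.92 CPM with s46 and 2.96, 1.94 and 3.52 CPM with s47. The other 8 libraries lay below scrambled replicate 1 and overlapped. MT-TP had a log2 fold change of -0.45 ± 0.38 (SE, edgeR adjusted p 0.528), and of 0.30 ± 0.30 (adjusted p 0.837) without scrambled replicate 1. MT-TW, the tryptophan tRNA that follows MT-ND2, was at 16.3, 1.58 and 1.06 CPM in scrambled replicates 1, 2 and 3, 1.18, 1.11 and 0.874 CPM with s46 and 0.673, 1.34 and 0.632 CPM with s47. Scrambled replicate 1 held 365 reads against 18 to 47 in the other 8, or 15.5 times their mean in CPM. MT-TW had a log2 fold change of -2.69 ± 0.75 (SE, edgeR adjusted p 0.177), and of -0.46 ± 0.35 (adjusted p 0.779) without scrambled replicate 1. The threonine tRNA MT-TT, which follows MT-CYB, was at 6.09, 0.977 and 1.17 CPM in scrambled replicates 1, 2 and 3, 1.11, 0.625 and 1.12 CPM with s46 and 1.38, 1.05 and 0.798 CPM with s47. It too stood out in scrambled replicate 1, at 5.92 times. MT-TT had a log2 fold change of -1.42 ± 0.50 (SE, edgeR adjusted p 0.216), and of -0.09 ± 0.34 (adjusted p 0.968) without scrambled replicate 1.

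Glutamine tRNA MT-TQ was at 1.61, 1.48 and 1.28 CPM in scrambled replicates 1, 2 and 3, 1.41, 0.764 and 1.6 CPM with s46 and 1.16, 1.37 and 1.13 CPM with s47. Its groups overlapped, and s46 replicate 3 was level with scrambled replicate 1. MT-TQ had a log2 fold change of -0.23 ± 0.28 (SE, edgeR adjusted p 0.669), and of -0.16 ± 0.31 (adjusted p 0.934) without scrambled replicate 1. MT-TS1, a serine tRNA on the minus strand, was at 2.46, 0.876 and 0.844 CPM in scrambled replicates 1, 2 and 3, 0.991, 1.29 and 1.05 CPM with s46 and 0.935, 1.21 and 0.665 CPM with s47. MT-TS1 had a log2 fold change of -0.43 ± 0.37 (SE, edgeR adjusted p 0.541), and of 0.25 ± 0.33 (adjusted p 0.893) without scrambled replicate 1. The other 3 tested tRNAs were MT-TI, MT-TA and MT-TY, at log2 fold changes of -1.88, -0.11 and -0.13, and 0.57, -0.19 and -0.29 without scrambled replicate 1, with edgeR adjusted p of 0.263 to 0.896 and of 0.874 to 0.943. MT-TI held 65 reads in scrambled replicate 1 and 4 to 18 in the other 8. MT-TM, MT-TD, MT-TE and MT-TV had reads in at least 1 library but did not reach the filter. The other 10 tRNAs had 0 sense reads in every library: MT-TF, MT-TL1, MT-TN, MT-TC, MT-TK, MT-TG, MT-TR, MT-TH, MT-TS2 and MT-TL2.

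Which tRNAs had sense reads followed the strand of their neighbours on the circular map. Of the 10 tRNA genes with a gene of their own strand on both sides, 9 had 0 sense reads and MT-TV had 3 in all 9 libraries together. The 9 with such a neighbour on 1 side had 1418 sense reads in all, from 0 (MT-TF) to 612 (MT-TW), and the 3 with opposite-strand genes on both sides, MT-TQ, MT-TS1 and MT-TP, had 1408. The boundaries shown above give both cases: MT-TW and MT-TT end in a minus-strand neighbour and had reads, whereas MT-TG, MT-TR and MT-TH lie between plus-strand genes and had none. How many of the reads listed as ambiguous lie over tRNA genes was not tested, so 0 here is a count of assigned reads and not a measure of the tRNA.

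Reads on the strand opposite a gene were then examined. They made up 6.02% to 9.13% of the stranded reads over the 13 mRNAs with TLX1 siRNA, 6.07% to 12.4% over the 2 rRNAs and 83.5% to 87.1% over the 22 tRNAs. For comparison, the same share of reads summed over all genes was 5.22% to 5.57% with TLX1 siRNA. It was 6.32%, 5.46% and 5.84% in scrambled replicates 1, 2 and 3. Taken gene by gene, which is another measure, the median over 4765 nuclear protein-coding genes with at least 1000 stranded reads in each library was 0.237% to 0.342%. In scrambled replicates 1, 2 and 3 the share was 5.4%, 8.85% and 7.32% over the mRNAs, 14.6%, 6.58% and 8.9% over the rRNAs and 74.4%, 87.4% and 86.4% over the tRNAs. The siRNA mean minus the scrambled mean was 0.477 percentage points for mRNAs, -0.642 for rRNAs and 2.57 for tRNAs, each smaller than the SD of the scrambled libraries. Without scrambled replicate 1 these differences had the opposite sign, at -0.419, 1.63 and -1.60 percentage points.

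Single genes differed in this share. MT-ND5 was read mostly from the opposite strand, at 61.1% to 62.9% in 8 libraries and 39.1% in scrambled replicate 1. MT-RNR1 (17.9% to 35.9%), MT-ND4 (20.4% to 29.5%), MT-ND1 (14.3% to 23.7%), MT-CYB (13.2% to 21%) and MT-ND2 (12.2% to 18.9%) followed. The lowest were MT-CO2 (1.42% to 2.91%) and MT-CO3 (1.54% to 2.58%), 2 of the genes with the highest sense level per kb. In scrambled replicate 1 the share lay outside the range of the other 8 for 13 of the 15 mRNAs and rRNAs (86.7%), and for 38.6% of the 4765 nuclear genes. Of the 15 genes, 9 lay below the range (60%) and 4 above it (26.7%), against 17.5% and 21.1% of the nuclear genes. Those below included MT-ND1 (2.06%) and MT-CYB (3.26%), where the sense level of scrambled replicate 1 was high. Above it lay MT-ND6 (41.9% against 7.21% to 9.81%) and MT-ND3 (9.39% against 4.14% to 5.39%), where its sense level was low. The other 2 above it were MT-RNR1 (43.8% against 17.9% to 35.9%) and MT-CO3 (5.52% against 1.54% to 2.58%), where its sense level was also the highest.

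**Figure D4:**
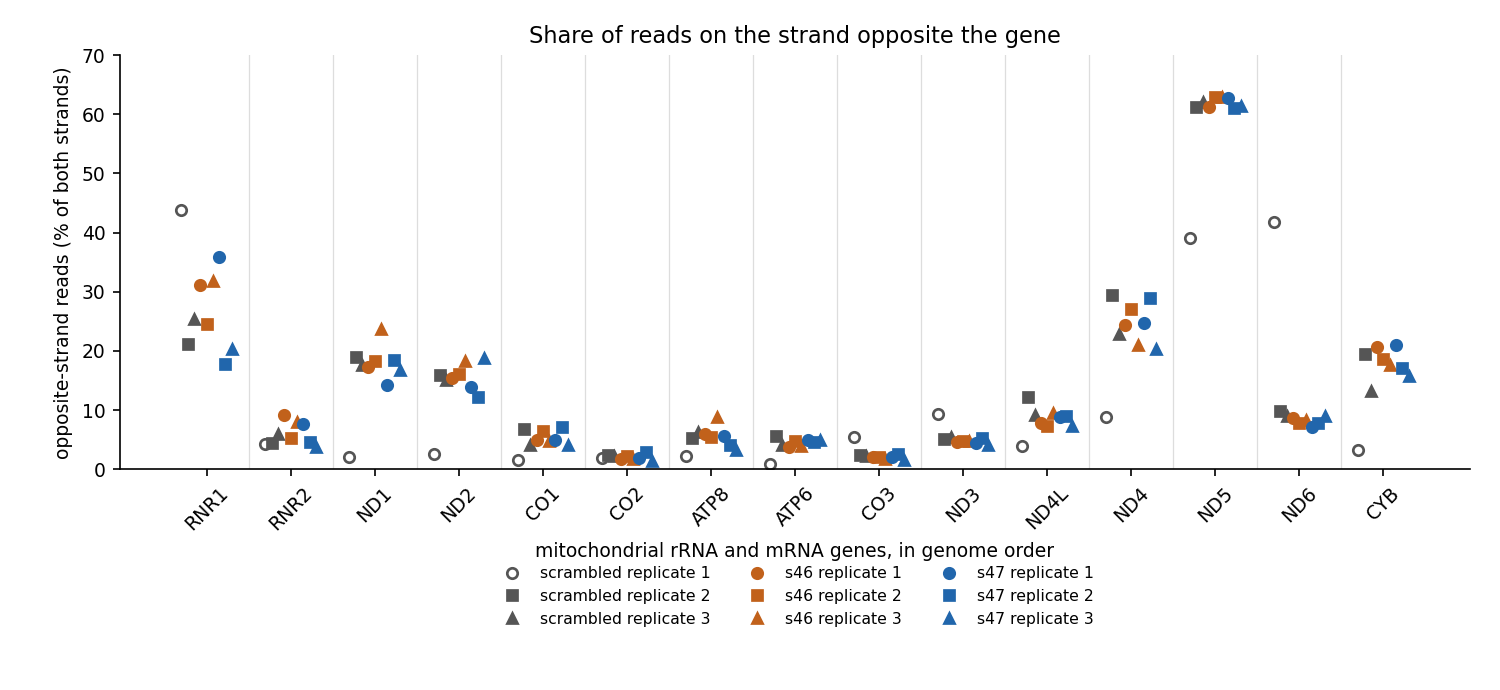
Reads on the opposite strand as a percent of the reads on both strands (y axis) for the 2 rRNAs and 13 mRNAs in genome order (x axis), with 1 point per library and colour for the siRNA group. MT-ND5 lies at 61.1% to 62.9% in the 8 libraries other than scrambled replicate 1 (open circle), which lies outside the range of the other 8 for 13 of the 15 genes.

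RNA of the minus strand over MT-ND5 and MT-ND6 was therefore compared directly. In opposite-strand level, MT-ND5 was at 227, 149 and 134 CPM in scrambled replicates 1, 2 and 3, 145, 146 and 131 CPM with s46 and 143, 152 and 114 CPM with s47. Except for scrambled replicate 1, the libraries overlapped. On the opposite strand, MT-ND5 had a log2 fold change of -0.14 ± 0.15 (SE, edgeR adjusted p 0.76), and of 0.03 ± 0.13 (adjusted p 1.00) without scrambled replicate 1. MT-ND6 on its own opposite strand, that is plus-strand RNA, was at 4.84, 3.57 and 2.6 CPM in scrambled replicates 1, 2 and 3, 3.01, 2.85 and 2.68 CPM with s46 and 2.58, 2.73 and 2.59 CPM with s47. On the opposite strand, MT-ND6 had a log2 fold change of -0.27 ± 0.21 (SE, edgeR adjusted p 0.674), and of -0.11 ± 0.23 (adjusted p 1.00) without scrambled replicate 1. Per kb, minus-strand RNA was at 63.1 to 83.9 CPM over MT-ND5 and 49.9 to 64.6 CPM over MT-ND6 in the 8 libraries, and at 126 and 12.8 CPM in scrambled replicate 1. The count ratio of the former to the latter was 4.3 to 5.08 in the 8 and 33.9 in scrambled replicate 1. Minus-strand reads over the boundary count in both terms of this ratio, so the 2 levels are not separate measures. The mature MT-ND6 mRNA is known to extend past its coding part into the region antisense to MT-ND5.

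The boundary between these genes also shows how the tables divide reads. In the unstranded column MT-ND5 and MT-ND6 each lacked exactly 3133 of the reads that the 2 stranded columns give them over all libraries, from 75 in scrambled replicate 1 to 443 in s47 replicate 2, with equal numbers for both genes in every library. These are 38.7% of the MT-ND6 reads. A read over both genes has 1 of them on its own strand and the other on the opposite strand, so that each stranded column can assign it, whereas without strand it meets 2 genes.

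Of the genes with most opposite-strand reads, MT-CO1 was at 54.8, 99.6 and 61.9 CPM in scrambled replicates 1, 2 and 3, 68, 91.8 and 68.9 CPM with s46 and 70.6, 103 and 63.9 CPM with s47. The lowest library there was scrambled replicate 1, the reverse of its sense level. On the opposite strand, MT-CO1 had a log2 fold change of 0.21 ± 0.21 (SE, edgeR adjusted p 0.751), and of -0.01 ± 0.19 (adjusted p 1.00) without scrambled replicate 1. MT-CO3 was at 120.1, 42.8 and 38.1 CPM in scrambled replicates 1, 2 and 3, 36.2, 34.4 and 31.6 CPM with s46 and 37.1, 45.3 and 30.9 CPM with s47. Here scrambled replicate 1 was 3.24 times the mean of the other 8, against 1.16 times on the sense strand. On the opposite strand, MT-CO3 had a log2 fold change of -0.72 ± 0.25 (SE, edgeR adjusted p 0.429), and of -0.11 ± 0.14 (adjusted p 1.00) without scrambled replicate 1.

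On the opposite strand 24 genes were tested (13 mRNAs, 2 rRNAs and 9 tRNAs), and 0 were called for the mean of both siRNAs with edgeR, DESeq2 or limma-voom, where edgeR called 0.0201% of 9964 genes. At an unadjusted p under 0.05, 5 were lower (MT-CO2, MT-CO3, MT-TA, MT-TQ and MT-TY) and 0 were higher, against 9.86% of all genes (5.76% lower and 4.09% higher), and DESeq2 and limma-voom gave 4 and 2. When scrambled replicate 1 was left out, edgeR called 0 and gave 0 at that level, where 0.0189% and 3.75% of all genes passed. With s46, with s47 and between them, 0 were called (backgrounds 0%, 0.0201% and 0%), and 5, 3 and 0 had an unadjusted p under 0.05 (6.67%, 7.24% and 0.994% of all genes). DESeq2 and limma-voom also called 0 in each, with 4 and 2 genes at an unadjusted p under 0.05 for s46, 3 and 0 for s47 and 0 and 0 between the siRNAs. With no filter on low counts, 28 were tested and edgeR called 2 for the mean and 1 with s47 (0.381% and 0.112% of all genes), all lower. The median opposite-strand log2 fold change was -0.02 over the mRNAs, -0.20 over the rRNAs and -0.29 over the tRNAs, beside -0.02 over all genes on that strand. The class medians without scrambled replicate 1 were -0.10, 0.37 and -0.05, so that the rRNA median changed sign, with MT-RNR1 at -0.82 in all libraries and 0.33 without that one.

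Reads on the tRNA genes were summed by the strand of the gene. The 8 tRNAs encoded on the minus strand had 1680 sense and 13983 opposite-strand reads over all libraries, an opposite share of 87.3% to 91.3% in the 8 libraries and 89.9% in scrambled replicate 1. This sum was carried by 3 genes: MT-TP had 6082 opposite-strand reads, MT-TS1 3867 and MT-TY 2526. Single minus-strand tRNAs differed, with MT-TQ at 39.2% to 60.6% and MT-TA at 33.3% to 60% opposite in the 8 libraries. The 14 tRNAs encoded on the plus strand had 1149 sense and 387 opposite-strand reads, an opposite share of 26% to 47.8% and of 10.9% in scrambled replicate 1, and 8 of the 14 had no read on either strand. Single plus-strand tRNAs differed too, MT-TI and MT-TD having median opposite-strand shares of 67.9% and 75.7%, from few reads. On tRNA genes, a stranded column does not tell how long the RNA behind a read is. Neither column therefore separates mature tRNA from longer RNA that runs through the gene. In the unstranded column, MT-TW, MT-TT, MT-TQ, MT-TI and MT-TA had 0 reads, against 694, 474, 944, 277 and 334 over both strands. There MT-TS1 kept 1 of 4152, MT-TE 1 of 653 and MT-TY 40 of 2657. MT-TP kept 5731 of 6870 and MT-TC 46 of 52. Among mRNAs next to these tRNAs, MT-CO1, between MT-TY and MT-TS1, kept 403211 of 413739. MT-CYB, between MT-TE and MT-TT, kept 66137 of 67032. MT-ND1 (17348) and MT-ND2 (15553), next to MT-TI and MT-TW, kept all. Whether the missing tRNA reads are the ones missing from a neighbouring gene was not tested.

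**Figure D5:**
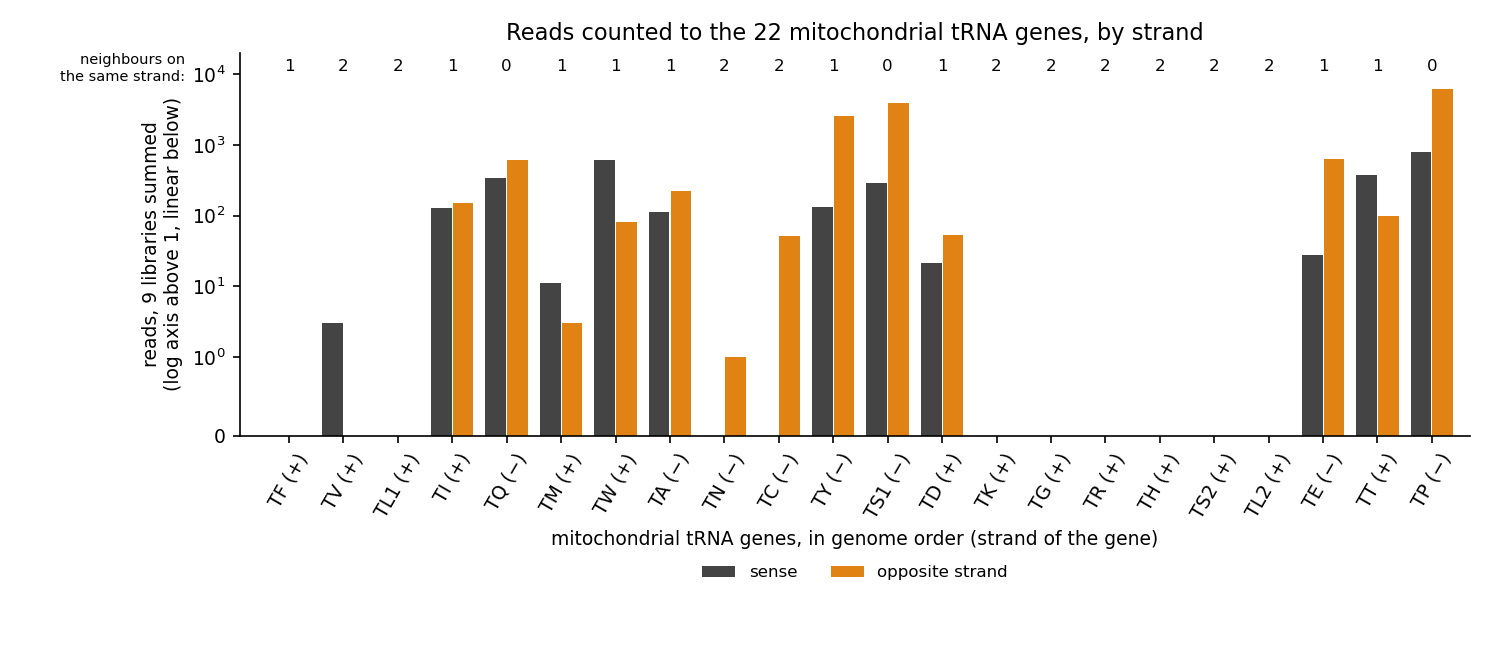
Sense (grey) and opposite-strand (orange) reads, summed over 9 libraries (y axis, log scale above 1 and linear below), for the 22 tRNA genes in genome order with the strand of each gene (x axis). The numbers on top count neighbouring mitochondrial genes on the same strand: the 10 tRNAs with 2 such neighbours had 3 sense reads in all, and the opposite-strand reads were most numerous over MT-TP, MT-TS1 and MT-TY, all on the minus strand.

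Nuclear genes that make, process or work with mitochondrial RNA were read from the same sense comparison. Among 9 genes of mitochondrial DNA transcription, TOP1MT, the mitochondrial topoisomerase, rose and the other 8, POLRMT and TFAM included, were not called, beside 0.566% of all genes (median log2 fold change 0.28). TOP1MT was at 8.28, 12.7 and 11.1 CPM in scrambled replicates 1, 2 and 3, 19.2, 32.9 and 25.4 CPM with s46 and 22.2, 30.1 and 26.8 CPM with s47. All siRNA libraries lay above all scrambled ones, it was called with each siRNA alone, and its log2 fold change was 1.28 ± 0.19 (SE, edgeR adjusted p 0.0114), and 1.13 (adjusted p 0.0141) without scrambled replicate 1. Among 37 nuclear subunits of complex I, NDUFA5, an accessory subunit, rose and 36 were not called, beside the same 0.566% of all genes (median 0.13). NDUFA5 was at 43.2, 82.3 and 66.6 CPM in scrambled replicates 1, 2 and 3, 109.6, 103 and 121 CPM with s46 and 119, 107 and 118 CPM with s47. The groups did not overlap, and the log2 fold change was 0.82 ± 0.17 (SE, edgeR adjusted p 0.0482), and 0.60 (adjusted p 0.0202) without scrambled replicate 1. NDUFA5 was called with neither s46 nor s47 alone.

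In the other 9 lists 0 genes were called with edgeR for the mean of both siRNAs, where 0.566% of all genes were: 11 genes of mitochondrial DNA replication and nucleoids, 19 of RNA processing and tRNA maturation, 16 of RNA stability and decay, 19 of rRNA modification and ribosome assembly, 22 aminoacyl-tRNA synthetases, and the nuclear subunits of complexes II (4), III (9), IV (12) and V (18). Their medians ran from 0.03 to 0.23, above the -0.03 of all genes, and without scrambled replicate 1 from 0.02 to 0.12. The gene with the smallest p in each list had these log2 fold changes with edgeR: SSBP1 0.33 (adjusted p 0.259, 0.16 without scrambled replicate 1), TRMT10C 0.43 (adjusted p 0.216, 0.26 without scrambled replicate 1), REXO2 0.44 (adjusted p 0.202, 0.29 without scrambled replicate 1), PTCD3 0.31 (adjusted p 0.229, 0.19 without scrambled replicate 1), NARS2 0.33 (adjusted p 0.214, 0.22 without scrambled replicate 1), SDHD 0.33 (adjusted p 0.241, 0.20 without scrambled replicate 1), UQCRFS1 0.32 (adjusted p 0.237, 0.18 without scrambled replicate 1), COX6C 0.33 (adjusted p 0.259, 0.17 without scrambled replicate 1) and ATP5MC1 0.32 (adjusted p 0.213, 0.25 without scrambled replicate 1). SSBP1 binds single-stranded mitochondrial DNA, TRMT10C is a subunit of mitochondrial RNase P, and REXO2 degrades short RNAs in the organelle. At an unadjusted p under 0.05 there were 1, 2, 6, 1, 5, 3, 1, 1 and 3 genes in these lists, in the same order, against 17.8% of all genes, and without scrambled replicate 1 there were 0, 1, 3, 0, 1, 0, 0, 1 and 1, against 8.62%. Over all 183 list genes tested, the 7 nuclear copies below included, edgeR called 2, DESeq2 3 and limma-voom 2. The count depended on single libraries. Without scrambled replicate 2, 44 of 186 were called (23.7%, nuclear copies among them), against 10.1% of all genes. Without scrambled replicate 3, neither TOP1MT nor NDUFA5 was called, with 0 of 183, and 22 of all 16437 genes (0.134%). Leaving out any 1 of the siRNA libraries, or scaling to library totals, lost the call of NDUFA5 and not that of TOP1MT. Of the markers of cell type, 0 of 10 T-lineage and 0 of 3 B-cell genes tested were called, with 4 and 0 at an unadjusted p under 0.05 (5 and 0 without scrambled replicate 1), and the smallest p were those of CD7 -0.50 (adjusted p 0.2, -0.44 without scrambled replicate 1) and PAX5 -1.08 (adjusted p 0.295, -0.48 without scrambled replicate 1).

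The nuclear genome holds copies of mitochondrial genes, pseudogenes so alike that reads cannot always be told apart. The 406 annotated copies took 0.00929% of sense gene reads in scrambled replicate 1 and 0.00541% to 0.0072% in the other 8. The 3 with most reads lie on chromosome 1. MTCO2P12 was at 19.5, 40.9 and 36.8 CPM in scrambled replicates 1, 2 and 3, 51.2, 32.5 and 45.1 CPM with s46 and 50.8, 35.6 and 43.6 CPM with s47. Scrambled replicate 1 was the lowest library for this copy, although it was the highest for MT-CO2. Its log2 fold change was 0.41 ± 0.22 (SE, edgeR adjusted p 0.338), and 0.15 (adjusted p 0.854) without that library. MTATP6P1 was at 26.4, 10 and 10.1 CPM in scrambled replicates 1, 2 and 3, 9.53, 10.7 and 11.2 CPM with s46 and 9.13, 9.76 and 9.87 CPM with s47, and MTCO1P12 at 16.8, 4.92 and 6.27 CPM in scrambled replicates 1, 2 and 3, 5.45, 6.32 and 6.06 CPM with s46 and 5.57, 4.83 and 6.08 CPM with s47, both highest in scrambled replicate 1, as were MT-ATP6 and MT-CO1. Of the 7 copies tested 0 were called with edgeR, and 3 had an unadjusted p under 0.05, beside 0.566% and 17.8% of all genes. Without scrambled replicate 1, 0 of 7 were called and 0 had an unadjusted p under 0.05, beside 0.666% and 8.62%. The median log2 fold change was -0.62 in all libraries and 0.15 without scrambled replicate 1. How many reads the copies exchange with the mitochondrial genes, or lose as multimapping, was not tested.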

How the data were processed

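Total RNA of 9 ALL-SIL libraries was examined. The files deposited by the authors hold unnormalized read counts, 1 table per library with a column without regard to strand and a column for each strand, with GRCh38 named in the submitters' processing notes. For the aligner, counter and annotation, names and versions were not given in the sources used here. Of 58096 gene IDs, 57492 matched GENCODE 29 and 604 did not; names and coordinates come from it. The 4 lines that name no gene were kept out of totals and tests. The stranded column with most gene reads was taken as sense.

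Counts of all genes were filtered (filterByExpr, minimum count 10), given TMM factors and tested in R 4.3.3 with edgeR 4.0.16 (quasi-likelihood test with robust dispersion, all 9 libraries in 1 fit, group as the only term, Benjamini-Hochberg over all genes, threshold 0.05). Opposite counts were tested with that column's own totals, but are shown as CPM on the sense library sizes. DESeq2 1.42.0, limma-voom 3.58.1, other scalings, other filters, a replicate block and leaving out each library were alternatives. Genes named are all 37, with values per library for the mRNAs, the rRNAs and the 5 tRNAs with most sense reads, and for opposite strands the 3 highest and MT-ND6. From each nuclear list the called genes, or the gene with the smallest p, are named, with TLX1 and the 3 nuclear copies with most reads. The members and lists were chosen with earlier results of these data known.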

Additional observations from a re-analysis of the deposited data

How the results depend on the processing

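The count of mitochondrial genes called with edgeR was 0 in every comparison in the main analysis. With no filter on low counts, of 27 tested on the sense strand it was 5 for the mean of both siRNAs, 3 for s46 and 2 for s47. Of 28 tested on the opposite strand it was 2 for the mean and 1 for s47. Leaving out 1 library gave 0 to 6 sense calls for the mean, with 6 without scrambled replicate 2. For the nuclear lists, nuclear copies included, 2 genes were called in the main analysis, 1 with library totals, 11 with no filter, 1 without the 3 libraries numbered 1 (chosen after seeing the data) and 0 to 44 leaving out 1 library. The cause was not tested.

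Without scrambled replicate 1 the sense log2 fold change changed sign for 6 of 23 genes (MT-ATP8, MT-CO3, MT-ND4L, MT-TI, MT-TP and MT-TS1), and the opposite-strand one for 8 of 24 (MT-ATP6, MT-CO1, MT-CYB, MT-ND1, MT-ND2, MT-ND5, MT-RNR1 and MT-TI). Over the fits that each leave out 1 library, the sense value ran from -0.318 to 0.301 for MT-ATP8, -0.102 to 0.0574 for MT-CO3, -0.927 to 0.0234 for MT-ND4L, -0.794 to 0.305 for MT-TP and -0.684 to 0.246 for MT-TS1, and the opposite-strand value from -0.00577 to 0.603 for MT-CO1 and -0.278 to 0.0345 for MT-ND5. Without the 3 libraries numbered 1, of the genes described one by one, the sense value changed sign for MT-ATP8 (0.0931), MT-CO3 (0.0598), MT-RNR1 (0.0229), MT-TP (0.173) and MT-TS1 (0.283). With the replicate block, 0 mitochondrial genes were called on the sense strand for the mean of both siRNAs, where 222 genes were called in all against 91 without it. The block moved the members with an unadjusted p under 0.05 from 8 to 7 for s46 and from 7 to 2 for s47, and left 12 for the mean. Same-numbered libraries correlated at -0.016 to 0.426 in their deviations from the group means, 8 of 9 pairs above 0.1 and 1 below it, against -0.307 to 0.171 for other numbers. The labels tie no number to a shared batch or day, and pairs were taken only where every one passed 0.1, so the block was kept as an alternative. Each of the 9 libraries had its best match in another group under its own number, a hint from the data and not from the design. The 14 tRNAs with at most 8 sense reads in any library were not tested in the main analysis. Of these, the 10 at 0 in every library could not be tested in any setting. The part of depth in this was not tested.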
